A study of Mus musculus with 56 samples.

Results

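Insig1, Insig2, Srebf2, Scap, Stard4 and Mylip are the genes described here, 6 of the 52230 genes whose reads were summed in mouse liver. They were named from a list of genes of sterol sensing and LDL uptake, with earlier results of these data known. All 6 were among the 11477 genes that passed the filter on low counts in the fit of all 6 groups. Insig2 was also described by transcript, since its transcripts start at different places.

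Liver RNA was sequenced from 56 male mice carrying proline (GKRP-446P), leucine (GKRP-446L) or both at the same residue of the glucokinase regulatory protein, GKRP, which is encoded by Gckr. GKRP acts in the hepatocyte, where it helps set how much glucose the liver takes up. All mice came from 1 line on the B6N background, edited in the germline so that every cell carries the change, and were fed for 20 weeks a diet rich in fat and sugar (HFHSD), in which fat gave 45% of the energy and the water held 10% glucose and 5% fructose. Of these mice, 10 PP, 8 PL and 10 LL had no further treatment, and as many of each genotype were given a glucokinase activator (GKA, 3 mg/kg). Their age is not given in the labels. PP mouse 7, which the study removed, was left out of the comparisons, so that n = 9 for PP.

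Cells sense cholesterol in the membrane of the endoplasmic reticulum. When sterols are scarce, the escort protein Scap carries the transcription factor SREBP2, made by Srebf2, to the Golgi, where proteases release its active part. When sterols are plentiful, the INSIG proteins hold Scap in the endoplasmic reticulum and bring ubiquitin ligases to enzymes of cholesterol synthesis. Insig1 is itself a target of SREBP, so that its mRNA follows SREBP activity. Insig2 does not depend on SREBP in this way, and in liver one of its promoters is known to be suppressed by insulin. Stard4, also an SREBP2 target, carries cholesterol between membranes, and Mylip, a target of the sterol-activated receptor LXR, encodes the ligase IDOL, which marks LDL receptors for breakdown.

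Libraries held between 5180136 and 8081370 reads, with a median of 6545492 over the 56 mice. Gckr was expressed in every group, at 153 ± 20.3 CPM (read count scaled to library size, mean ± SD) in LL and 184 ± 26.5 in PP without GKA. Over both treatments its log2 fold change in LL was -0.21 (adjusted p = 0.0327), under the threshold on fold. Gckr reads do not show which residue a mouse carries, so they check the tissue rather than the genotype. The summed CPM of 6 hepatocyte markers was between 79965 and 130136 in the 55 mice. Of 5 pancreas markers, Prss2, Cpa1 and Pnlip had no reads in any mouse, and the summed level of the list, 6.83 to 50.9 CPM, was the range of Cela1. Of 4 fat markers, Adipoq and Lep had no reads in any mouse, and the summed level was 0 to 50.7 CPM, the range of Cidea. PP mouse 7 had 409 CPM of 5 macrophage markers, above the other PP mice without GKA (137 to 300). That lay within the range of 72.5 to 589 over the 55 mice. Its 5 stellate cell markers summed to 231 CPM, also above those mice (113 to 196). Its Insig1 and Insig2 levels, 151 and 277 CPM, were below theirs (lowest 180.0 and 289). Counts of mice below the lowest PP mouse without GKA thus depend on its removal. Its Stard4 level, 31.1 CPM, was below that of all 55 mice.

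Levels differed widely among the 6 genes. Per kilobase of the longest transcript, Insig2 had the highest mean level over 55 mice, 107 ± 34.8 CPM per kb, and Insig1 the next, 69.7 ± 31.0. Scap had 13.8 ± 2.87 CPM per kb, Stard4 10.5 ± 1.93, Srebf2 4.55 ± 0.805 and Mylip 1.396 ± 0.472. The ranges of neighbours overlapped for Insig2 and Insig1, for Scap and Stard4, and not for Insig1 and Scap, whose lowest and highest mice had 26.1 and 20.8 CPM per kb, nor for Srebf2 and Mylip, at 3.04 and 2.69. The coefficient of variation over the mice was 44.5% for Insig1, 32.6% for Insig2 and 33.8% for Mylip, against 17.7% for Srebf2, 18.4% for Stard4 and 20.9% for Scap. Mylip was close to the limit of the depth, with 9 to 62 reads per mouse.

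**Figure D1:**
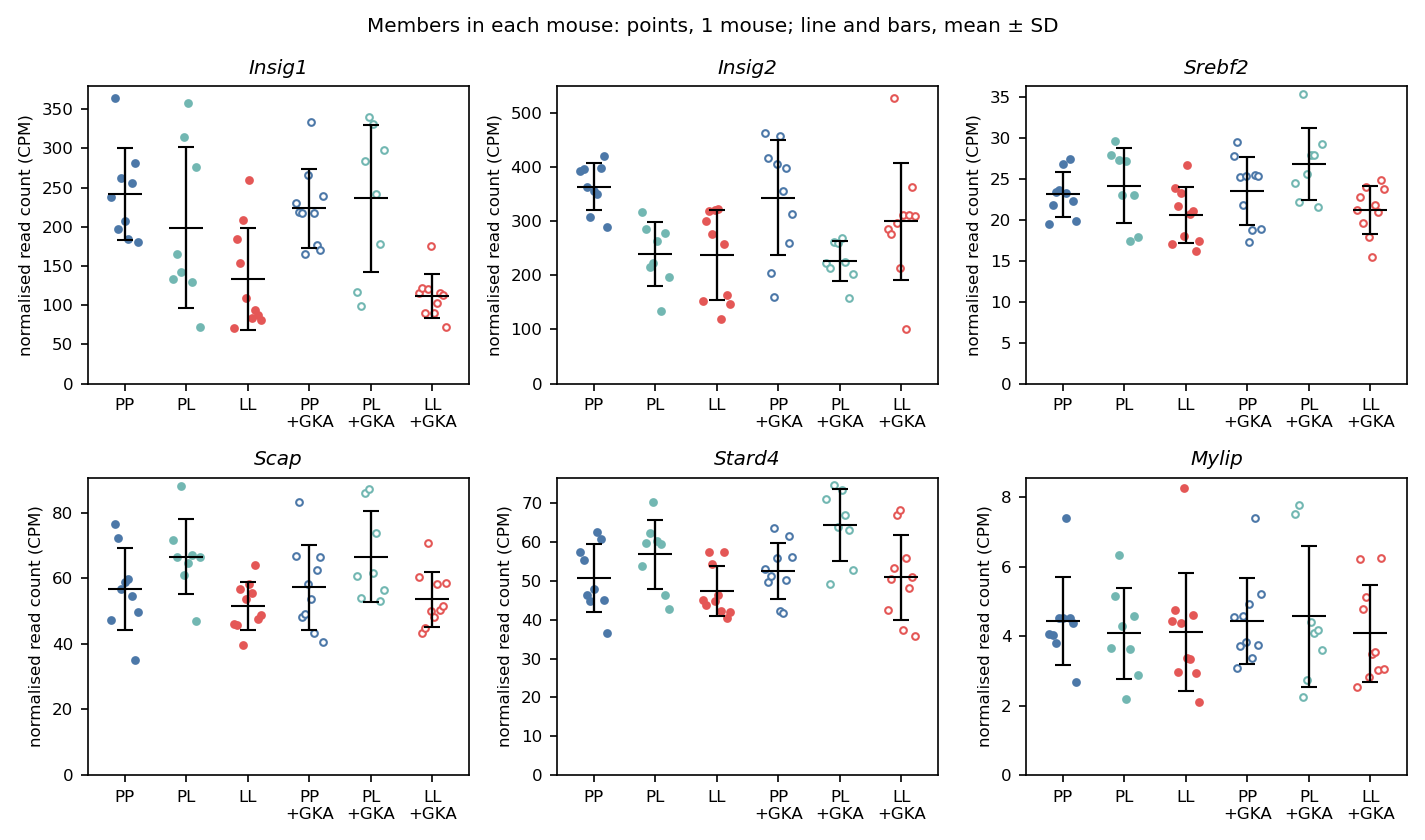
Normalised read count (CPM) of each of the 6 genes in each mouse, by genotype and treatment (open symbols with GKA). Points are single mice, the horizontal line is the group mean and bars are SD. Insig1 lies lowest in the LL groups, with means of 133 and 112 CPM. The Insig2 means of both PL groups, 239.5 and 227 CPM, lie below those of both PP groups. So do those of both LL groups, 238 and 300.3 CPM.

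Insig1 (ENSMUSG00000045294, GRCm39 chr5:28276315-28283668, plus strand) encodes the sterol-dependent anchor of Scap. Nearly all its reads came from the protein-coding transcript Insig1-201, with a mean of 1226 reads per mouse, against 27.8 for Insig1-202, a transcript with a retained intron. The sequence shown is the 250 bases before the annotated start of Insig1-201 in the GRCm39 genome (chr5:28276077-28276326, plus strand, 5′ to 3′), because sterol response elements near the start are the known route by which SREBP acts on this gene. Capitals mark matches, on either strand, to TCACNCCAC (a sterol response element, with at most 1 mismatch), CCAAT and CACGTG.
Insig1-201: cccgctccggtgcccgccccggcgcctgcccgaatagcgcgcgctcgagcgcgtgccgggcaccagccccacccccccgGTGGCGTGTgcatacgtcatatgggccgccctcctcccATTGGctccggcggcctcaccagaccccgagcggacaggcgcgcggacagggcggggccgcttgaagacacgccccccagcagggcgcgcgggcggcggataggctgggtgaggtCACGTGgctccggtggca

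The match GTGGCGTGT, with 1 mismatch to the sterol response element on the opposite strand, began 171 bases before the start. ATTGG, the reverse complement of CCAAT, began 133 bases before it and CACGTG 18 bases before it. None of the matches overlapped. Of 11476 windows of the same length before the tested genes, Insig1 among them, 21.1% held TCACNCCAC with at most 1 mismatch, 1.00% held it exactly, 36.1% held CCAAT and 7.67% held CACGTG. The GC content of the Insig1 window was 76.4%. A match to these letters is a description of the sequence and not evidence of binding.

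To determine whether the LL genotype changed Insig1, its level was compared mouse by mouse. In PP the lowest, median and highest mice had 180.0, 238 and 365 CPM, with a mean of 241 ± 58.7 (SD, n = 9). In LL they had 70.3, 101 and 259 CPM, with a mean of 133 ± 65.0 (n = 10). Of the 10 LL mice, 7 lay below the lowest PP mouse, and the other 3 lay within the PP range. The log2 fold change was -0.85 with an SE of 0.23, and the adjusted p was 0.112, so that Insig1 was not called; a gene was called where its adjusted p was under 0.05 and its level at least 1.3 or at most 0.7 times that of the other group. In that comparison edgeR called 9 of 10537 genes (0.0854%) and none of the 6 genes, of which 2 had an unadjusted p under 0.05. DESeq2 called 1.03% of the same genes and both Insig1 (adjusted p = 0.0201) and Insig2 (adjusted p = 0.0419). Without LL mouse 42, Insig1 was called by edgeR (log2 fold change -1.01, adjusted p = 0.0270). Over the fits that left out 1 mouse, the number of all genes called ran from 0 to 85, with a median of 0.

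With GKA, Insig1 was lower in LL and the groups were nearly separate. The lowest, median and highest mice had 165, 218 and 334 CPM in PP, with a mean of 224 ± 50.4 (n = 10), and 71.7, 114 and 175 CPM in LL, with a mean of 112 ± 27.6 (n = 10). Of the LL mice, 9 lay below the lowest PP mouse and only mouse 51, with 175 CPM, lay above it. Insig1 fell by 1.00 on the log2 scale (SE 0.14, adjusted p = 0.00378), the smallest p of the 10460 genes tested, of which 0.239% were called. The call was kept in each of the 20 fits that left out 1 mouse, with log2 fold changes between -1.10 and -0.92. It was lost when the counts were offset by the mean effective length of the transcripts of a gene in each mouse (log2 fold change -1.05, adjusted p = 0.1001).

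Over both treatments, in a fit of genotype and GKA to 55 mice, Insig1 fell in LL by 0.93 on the log2 scale (SE 0.17, adjusted p = 0.000477), in a comparison where 1.7% of 11477 genes were called. All 55 fits without 1 mouse kept the call. The LL effects without and with GKA did not differ beyond their error (interaction -0.15, SE 0.28, adjusted p = 0.992, with 0% of 11193 genes called by edgeR, 644 at an unadjusted p under 0.05 and 1 called by DESeq2). In bulk liver, fewer cells that express a gene and less of its mRNA per cell cannot be told apart. All 4 haemoglobin genes had higher estimates in LL than in PP over both treatments (median log2 fold change 0.65, 0 of 4 called). Their summed level lay between 205 and 2855 CPM in LL with GKA against 273 to 576 in PP with GKA. The medians of these groups were 364 and 378 CPM, and without GKA 476 CPM in LL and 380 in PP. No defining marker was at 0, and the part of these genes in the Insig1 result was not tested.

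Insig1 was not called in PL, which has 1 copy of each allele. PL mice spread over almost the whole range of the other genotypes, with 72.7, 154 and 358 CPM as the lowest, median and highest without GKA (mean 199 ± 103, n = 8) and 99.5, 263 and 340.3 CPM with GKA (mean 236 ± 94.3, n = 8). Without GKA 5 of the 8 PL mice lay below the lowest PP mouse and the other 3 within the PP range, whereas with GKA 2 lay below the lowest PP mouse and 1 above the highest. The log2 fold change of PL against PP over both treatments was -0.09 with a 95% interval of -0.43 to 0.26 (adjusted p = 0.881). Insig1 was lower in LL than in PL over both treatments (log2 fold change -0.84, SE 0.17, adjusted p = 0.00760), where 0.34% of genes were called. Between PL and LL without GKA, where 0.00942% of genes were called, it was -0.59 (SE 0.31, adjusted p = 0.9996), and with GKA -1.08 (SE 0.22, adjusted p = 0.124). In the latter edgeR called 0% of genes, with 902 at an unadjusted p under 0.05 and 39 called by DESeq2, Insig1 among them.

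**Figure D2:**
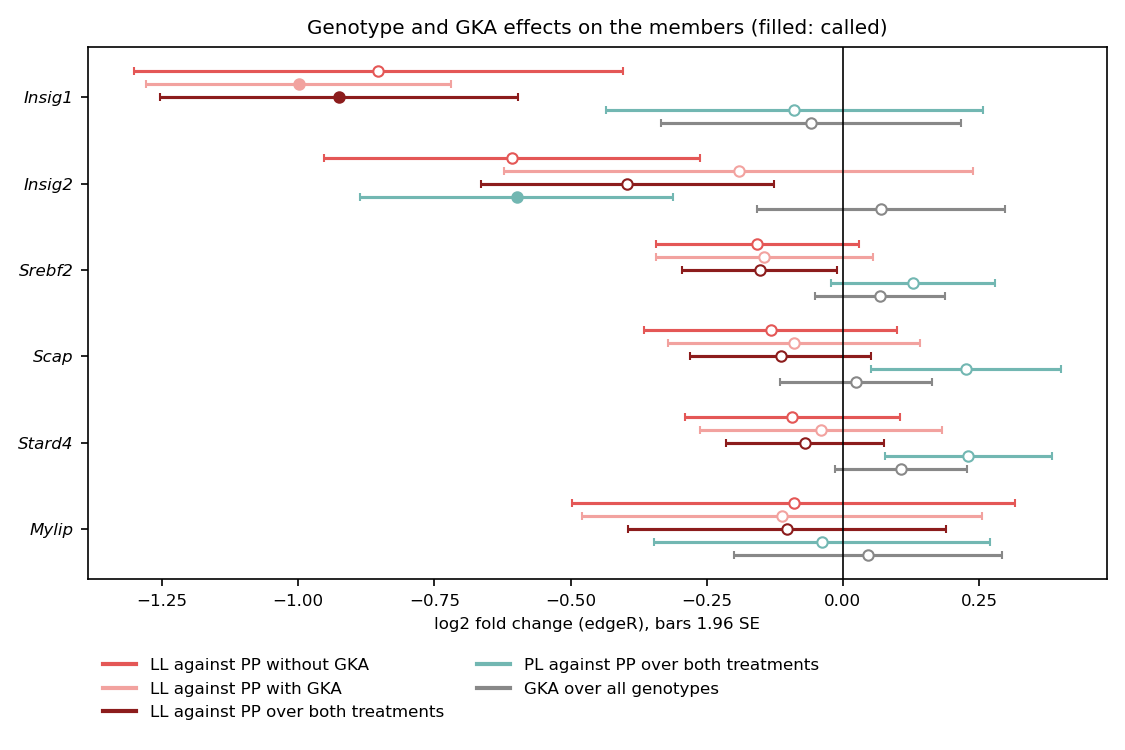
Log2 fold change of each gene, with bars for the 95% interval, for 5 comparisons fitted in edgeR; filled symbols passed both thresholds. Insig1 is filled for LL against PP with GKA and over both treatments (-0.999 and -0.93), and Insig2 for PL against PP (-0.60), while all effects of GKA lie close to 0.

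Insig2 (ENSMUSG00000003721, GRCm39 chr1:121181760-121260400, minus strand) encodes the second anchor of Scap and was the most abundant of the 6 genes. In PP its level was even, with 289, 364 and 421 CPM in the lowest, median and highest mice (mean 364 ± 43.8, n = 9). In PL the values were 134, 243 and 317 CPM (mean 239.5 ± 58.7, n = 8), and in LL 119, 268 and 322 CPM (mean 238 ± 82.7, n = 10). All 8 PL mice and all 10 LL mice lay below the PP median, and 7 of the PL mice and 6 of the LL mice below the lowest PP mouse.

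In the fit over both treatments Insig2 fell in PL by 0.60 on the log2 scale (SE 0.15, adjusted p = 0.0161), in a comparison where 1.05% of genes were called. It was not called when the counts were offset by transcript length (log2 fold change -0.52, adjusted p = 0.491). The estimates within a treatment were alike, -0.60 (SE 0.14, adjusted p = 0.0730) without GKA and -0.60 (SE 0.18, adjusted p = 0.312) with GKA, and neither passed the test by edgeR. Without GKA edgeR called 16 genes (0.151%), and DESeq2 called 71, Insig2 among them (adjusted p = 0.00389). With GKA edgeR called 0% of genes, with 862 at an unadjusted p under 0.05 and 31 called by DESeq2, and all 8 PL mice (158, 224 and 269 CPM, mean 227 ± 37.1) lay below the PP median of 378 CPM. All 5 markers of stellate cells also had lower estimates in PL than in PP over both treatments (median log2 fold change -0.54, 0 of 5 called, 3 with an unadjusted p under 0.05), with summed levels of 88.8 to 186 CPM in PL and 113 to 196 in PP without GKA, and no defining marker at 0. Their part in the Insig2 result was not tested.

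For LL against PP, Insig2 was called in neither treatment group by edgeR. The estimate was -0.61 (SE 0.18, adjusted p = 0.142) without GKA and -0.19 (SE 0.22, adjusted p = 0.854) with GKA, where LL mice had 101, 304 and 529 CPM (mean 300.3 ± 108) and PP mice 159.9, 378 and 465 CPM (mean 344 ± 106). The interaction was 0.42 (SE 0.29, adjusted p = 0.953), so that a difference between treatments was not detectable. With the length offset the estimates were larger and none was called, at -1.50 for LL against PP without GKA (adjusted p = 0.157), 1.59 for the interaction (adjusted p = 0.347) and -0.92 for GKA in PP (adjusted p = 0.799). Over both treatments the log2 fold change was -0.40 (SE 0.14, adjusted p = 0.0968). LL and PL did not differ beyond their error (0.20, 95% interval -0.08 to 0.49, adjusted p = 0.757).

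Insig2 moved with the clock genes of the mouse. A clock component, the first principal component of 16 circadian genes such as Bmal1, Npas2 and Dbp (57.1% of their variance), is higher where Dbp is higher and Bmal1 lower. Its mean was -0.60 ± 0.58 in PP, 0.55 ± 0.79 in PL and 0.48 ± 0.79 in LL, and -0.88 ± 1.34, 0.56 ± 0.52 and 0.04 ± 0.73 in the same genotypes with GKA (SD units). After subtraction of the group means, the log2 level of Insig2 had a Pearson r of -0.67 with it over 55 mice (Spearman rho -0.65), with a negative sign in all 6 groups (-0.84 to -0.37). Without the 2 mice farthest from the median of the component r was -0.74. Srebf2 also had a negative r in all 6 groups (-0.74 to -0.03), with -0.45 over the 55 mice (rho -0.51). The r was -0.48 for Scap, with a negative sign in 5 of 6 groups, -0.17 for Stard4 and -0.13 for Mylip. For Insig1 it was -0.11, with a negative sign in 3 of 6 groups.

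When the clock component was added to the model, the Insig2 difference of PL from PP over both treatments was -0.13 (adjusted p = 0.719) and that of LL from PP -0.07 (adjusted p = 0.842). With the component in the model Insig1 was still lower in LL than in PP over both treatments (-0.86, adjusted p = 0.00955) and with GKA (-1.04, adjusted p = 0.00848), while without GKA its estimate was -0.38 (adjusted p = 0.459). The labels give no time of day at which livers were taken, so that time of harvest and genotype cannot be told apart, and the component and the member levels come from the same libraries.

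**Figure D3:**
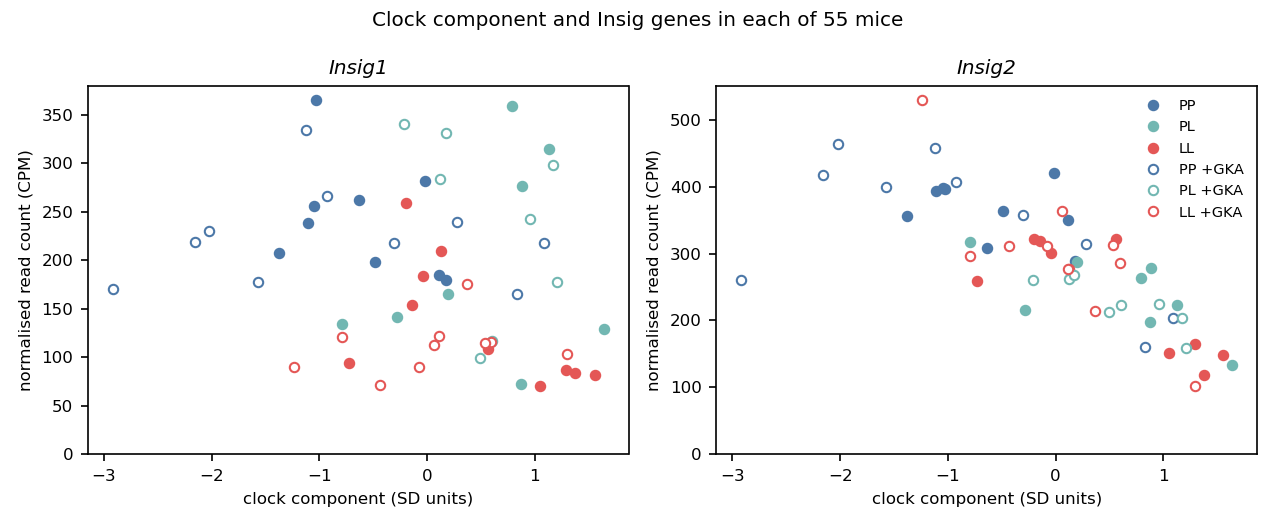
Clock component (x axis, SD units) against the normalised read count (CPM) of Insig1 and Insig2 in each of 55 mice, by genotype and treatment. Insig2 is lower in mice with a higher component in all 6 groups, with r between -0.84 and -0.37, whereas Insig1 shows no common slope and has a negative r in 3 of the 6 groups.

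Insig2 had 14 transcripts in the files, which fell into 6 groups by annotated start. The 2 compared here, the upstream and the downstream start, are Insig2-202, which starts at chr1:121260400, and Insig2-201, which starts at chr1:121255794, 4606 bases downstream on the minus strand. In the annotation both have 6 exons, of which exons 2 to 6 are shared, and they differ only in the first exon (180 bases in Insig2-202 and 375 bases in Insig2-201). The promoter windows of both starts are shown because Insig2 is known to be read from more than 1 promoter, with the same motifs in capitals (GRCm39, minus strand, 5′ to 3′, 250 bases before each start, chr1:121260401-121260650 and chr1:121255795-121256044).
Insig2-202: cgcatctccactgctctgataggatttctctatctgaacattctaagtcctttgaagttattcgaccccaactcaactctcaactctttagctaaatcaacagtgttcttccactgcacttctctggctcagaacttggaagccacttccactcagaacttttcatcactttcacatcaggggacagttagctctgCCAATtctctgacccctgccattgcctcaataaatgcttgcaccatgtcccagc
Insig2-201: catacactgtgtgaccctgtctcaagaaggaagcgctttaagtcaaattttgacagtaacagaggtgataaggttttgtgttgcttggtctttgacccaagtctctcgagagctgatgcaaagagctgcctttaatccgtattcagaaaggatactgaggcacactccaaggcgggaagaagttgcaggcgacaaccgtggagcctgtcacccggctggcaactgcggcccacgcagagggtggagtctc

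The window of Insig2-202 held CCAAT, beginning 54 bases before the start, and neither window held TCACNCCAC with at most 1 mismatch or CACGTG, unlike the Insig1 window. That says only that these letters are not in these windows. The GC content was 45.6% before Insig2-202 and 51.6% before Insig2-201.

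Reads of Insig2 came mainly from the downstream start. Transcripts that began within 500 bases of the next were counted together, so that the downstream group (Insig2-201 and 7 others) held between 68.3% and 94.5% of the Insig2 reads of a mouse, with a median of 82.9%, and the upstream group (Insig2-202 and Insig2-209) a median of 5.48%. The upstream group, at 20.8 CPM in PP without GKA, was no more abundant there than the start groups of Insig2-213 (22.3 CPM) and of Insig2-206 (20.8 CPM), a transcript with a retained intron. The transcripts share most of their bases, so that the division rests on reads over the first exons and on Salmon's estimate, and Insig2-202 is 1302 bases shorter in the files than in the annotation used here. In the files it has 1292 bases, against 2697 for Insig2-201. These shares of reads are not corrected for length, so that they are not shares of molecules or of promoter use.

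The downstream group, which held most of the reads of the gene, followed it. Its mean level was 297 ± 33.7 CPM in PP, 199.7 ± 48.3 in PL and 193 ± 60.1 in LL, and 283 ± 88.0, 200.4 ± 41.0 and 253 ± 98.2 with GKA. None of the start groups of Insig2 was called in the 5 comparisons made by start group, which were LL against PP without GKA, with GKA and over both treatments, PL against PP over both treatments, and GKA over all genotypes. The log2 fold change of the downstream group for PL against PP over both treatments was -0.53 (SE 0.15, adjusted p = 0.0839), with 0.418% of 16765 start groups called. For LL against PP it was -0.62 (SE 0.16, adjusted p = 0.219) without GKA, where edgeR called 0% of start groups with 1130 at an unadjusted p under 0.05, -0.16 (SE 0.23, adjusted p = 0.9985) with GKA, where 0.024% were called, and -0.38 (SE 0.14, adjusted p = 0.215) over both, where 0.823% were called. The start of Insig1-201 was called in the last 2 of these (log2 fold change -1.01, adjusted p = 0.00442, and -0.93, adjusted p = 0.00146).

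The upstream group had its largest SD in LL without GKA, 29.1 CPM about a mean of 28.4, against 22.0 about 30.8 in PP with GKA, where mice ranged from 6.50 to 81.5 CPM. In LL without GKA its level ranged from 2.90 to 77.6 CPM with a median of 17.5, since mice 41, 42 and 44 had 76.0, 77.6 and 51.2 CPM and the other 7 mice between 2.90 and 20.0 CPM. In PP without GKA it ranged from 10.0 to 38.3 CPM with a median of 19.4, and in PL from 5.20 to 36.2 CPM with a median of 9.58. With GKA the medians were 24.8 CPM in PP, 10.5 in PL and 16.6 in LL. For PL against PP over both treatments the log2 fold change was -0.93 (SE 0.37, adjusted p = 0.370), and for LL against PP -0.05 with a 95% interval of -0.73 to 0.64 (adjusted p = 0.9992).

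As a share of Insig2 reads, the upstream group made up 5.72% ± 2.28 in PP, 5.08% ± 2.80 in PL and 10.5% ± 8.93 in LL, and 8.31% ± 4.57, 6.26% ± 4.70 and 6.92% ± 4.60 with GKA. The LL mice had 1.86%, 6.65% and 24.1% as the lowest, median and highest, which covers the whole range of PP from 2.85% to 10.8%. In 2-sided permutation tests over mice, none of 9 pairwise comparisons passed an adjusted p of 0.05. The difference of 4.76 percentage points between LL and PP without GKA had an exact permutation p of 0.152 (adjusted p = 0.456), and that of 5.40 between LL and PL an exact permutation p of 0.130 (adjusted p = 0.456). When Insig2-202 was set against Insig2-201 alone, a choice made after the data were seen, the shares were 6.35% ± 2.14 in PP and 10.8% ± 9.22 in LL (exact permutation p = 0.187, adjusted p = 0.560). By TPM, which is scaled by effective length, the shares of the same pair were larger. They were 15.1% ± 4.11 in PP and 23.4% ± 18.4 in LL, with 51.8% in the highest LL mouse (exact permutation p = 0.211, adjusted p = 0.633).

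**Figure D4:**
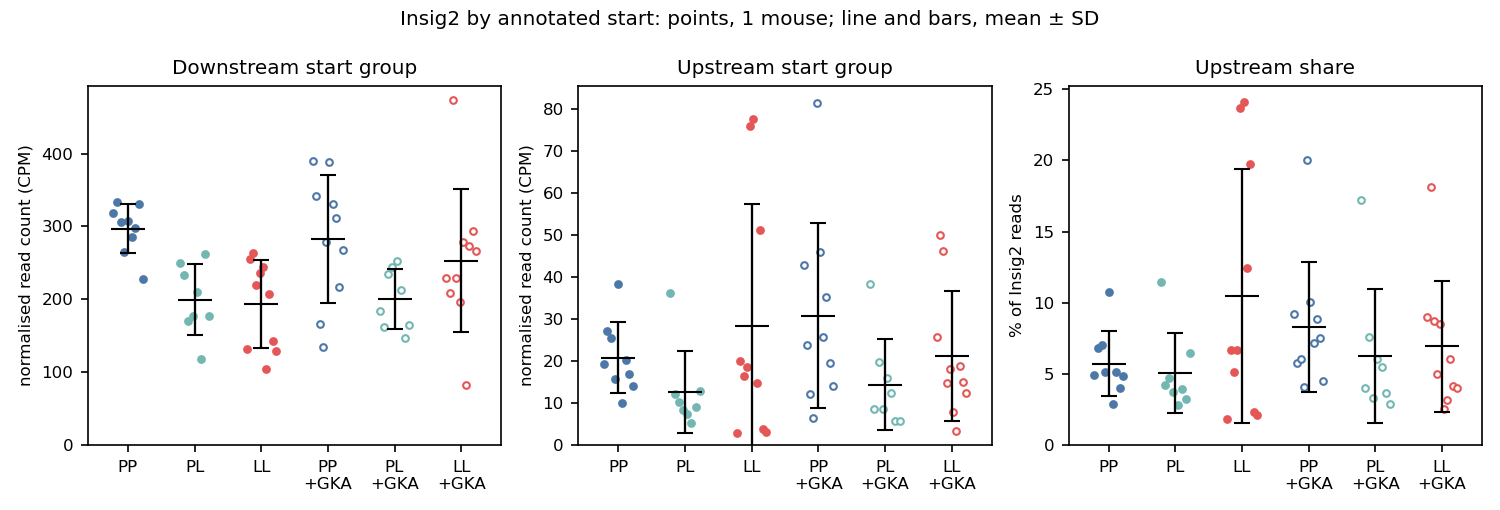
Insig2 by annotated start in each mouse: normalised read count (CPM) of the downstream start group (left), of the upstream start group (middle) and the upstream group as a percentage of Insig2 reads (right). Points are single mice, the line is the group mean and bars are SD, cut at 0. The downstream group, which holds most of the reads, has lower means in PL and LL than in PP. The upstream group also has lower means in PL, 12.7 against 20.8 CPM in PP without GKA and 14.4 against 30.8 with GKA. In that group 3 LL mice without GKA stand high, at 51.2 to 77.6 CPM.

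The balance of Insig1 and Insig2 was examined as the log2 ratio of their CPM, a quantity added after the data were seen. Its mean was -0.62 ± 0.27 in PP, -0.40 ± 0.74 in PL and -0.89 ± 0.42 in LL without GKA, and -0.58 ± 0.42, -0.05 ± 0.61 and -1.37 ± 0.78 with GKA. With GKA the ratio was lower in LL than in PL by 1.32 (exact permutation p = 0.00224, adjusted p = 0.0202), and all 10 LL mice lay below the PL median. Against PP with GKA it was lower by 0.79 (permutation p = 0.0115, adjusted p = 0.0517), with 8 of 10 LL mice below the lowest PP mouse. The other 7 comparisons had adjusted p-values of at least 0.144 by the same permutation tests.

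Srebf2 (ENSMUSG00000022463, GRCm39 chr15:82031382-82093201, plus strand), which encodes SREBP2, differed little between groups. Its mean level was 23.1 ± 2.71 CPM in PP, 24.2 ± 4.63 in PL and 20.6 ± 3.43 in LL, and 23.6 ± 4.13, 26.8 ± 4.43 and 21.3 ± 2.93 with GKA. The mice ranged from 15.4 CPM in LL with GKA to 35.4 CPM in PL with GKA, and the ranges of all groups overlapped. Over both treatments the log2 fold change was -0.15 (SE 0.07, adjusted p = 0.284) for LL against PP, 0.13 (SE 0.08, adjusted p = 0.467) for PL against PP and -0.28 (SE 0.08, adjusted p = 0.0758) for LL against PL. All 10 LL mice with GKA lay below the median of PL with GKA, 26.8 CPM, and 9 of 10 LL mice without GKA below the PL median of 25.2 CPM.

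Scap (ENSMUSG00000032485, GRCm39 chr9:110158229-110214024, plus strand), the escort of SREBP, was highest on average in PL. Its mean level was 56.7 ± 12.6 CPM in PP, 66.5 ± 11.4 in PL and 51.6 ± 7.27 in LL, and 57.2 ± 13.0, 66.6 ± 14.0 and 53.6 ± 8.33 with GKA. Mice ranged from 35.1 CPM in PP to 88.1 CPM in PL, and all 10 LL mice without GKA lay below the PL median of 66.5 CPM. The log2 fold change of LL against PL over both treatments, -0.34 (SE 0.09, adjusted p = 0.0565), missed the threshold, as did that of PL against PP, 0.23 (SE 0.09, adjusted p = 0.199), and of LL against PP, -0.11 (SE 0.08, adjusted p = 0.573). With the clock component in the model Scap was called in PL against PP (0.43, adjusted p = 0.0311) in place of Insig2. Exons of Srebf2 overlap an annotated gene on the minus strand (Gm56711) and those of Scap overlap 5830462I19Rik and Ptpn23. The strand used in counting is not stated, so that their values are uncertain to that extent.

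Stard4 (ENSMUSG00000024378, GRCm39 chr18:33332197-33346942, minus strand, with exons that overlap Gm58437), the cholesterol carrier, had a like pattern. Its mean level was 50.8 ± 8.69 CPM in PP, 56.9 ± 8.92 in PL and 47.4 ± 6.47 in LL, and 52.6 ± 7.21, 64.4 ± 9.30 and 51.0 ± 11.0 with GKA. With GKA 5 of 8 PL mice lay above the highest PP mouse, which had 63.6 CPM, and without GKA all 10 LL mice lay below the PL median of 59.7 CPM. The log2 fold change was -0.30 (SE 0.08, adjusted p = 0.0560) for LL against PL over both treatments, 0.23 (SE 0.08, adjusted p = 0.116) for PL against PP and -0.07 with a 95% interval of -0.21 to 0.08 (adjusted p = 0.753) for LL against PP. Srebf2, Scap and Stard4 thus had unadjusted p-values under 0.05 and adjusted p-values between 0.0560 and 0.0758 in LL against PL, where Insig1 alone of the 6 genes was called.

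Mylip (ENSMUSG00000038175, GRCm39 chr13:45543215-45565501, plus strand), the ligase gene, had group means between 4.08 CPM in LL with GKA and 4.57 CPM in PL with GKA, with SDs from 1.24 to 2.03. Its lowest mouse had 2.09 CPM and its highest 8.25 CPM, both in LL without GKA. The log2 fold change over both treatments was -0.10 for LL against PP (95% interval -0.40 to 0.19, adjusted p = 0.832), -0.04 for PL against PP (adjusted p = 0.951) and -0.06 for LL against PL (adjusted p = 0.958). At 9 to 62 reads per mouse, a difference within those intervals was not detectable.

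None of the 6 genes was called for GKA. Over all genotypes the log2 fold changes lay between -0.06 for Insig1 (SE 0.14) and 0.11 for Stard4 (SE 0.06), with adjusted p-values of at least 0.978. None had an unadjusted p under 0.05, and DESeq2 called none. The 95% interval was -0.33 to 0.22 for Insig1 and -0.16 to 0.30 for Insig2, so that changes of that size could not be seen. Over all genotypes edgeR called 0% of 11477 genes, with 606 at an unadjusted p under 0.05, and DESeq2 called 1. In PP, PL and LL taken singly edgeR again called 0% each, with 376, 331 and 643 genes at an unadjusted p under 0.05 and 0, 1 and 6 called by DESeq2. By start group edgeR called 0% for GKA, with 579 of 16765 at an unadjusted p under 0.05. The largest estimates for the INSIG genes were 0.34 (SE 0.23, adjusted p = 0.866) for Insig2 in LL, where 8 of 10 treated mice lay at or above the untreated median of 268 CPM, and -0.25 (SE 0.22, adjusted p = 0.901) for Insig1 in LL.

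The enzymes of cholesterol synthesis that SREBP2 is known to induce had lower estimates in LL than in PP over both treatments, as Insig1 did. In that comparison all 19 enzymes tested had negative estimates, with a median of -0.33 against 0.00 for all genes, of which 51.0% were positive. Only Mvd, mevalonate decarboxylase, was called, 1 of 19 where 1.7% of all genes were called, at -1.04 (SE 0.25, adjusted p = 0.00899). Mvd had a mean of 10.7 ± 4.396 CPM in PP and 4.80 ± 3.78 in LL, and 11.1 ± 4.74 and 5.67 ± 2.65 with GKA. Sc5d, a desaturase late in the pathway, and Pmvk, a mevalonate pathway kinase, had adjusted p-values of 0.0214 and 0.0421 with log2 fold changes of -0.33 and -0.51, both short of the threshold on fold. With the clock component in the model the median was -0.22. Without GKA all 19 were negative (median -0.47) and edgeR called none, with 12 at an unadjusted p under 0.05 and 0 called by DESeq2. With GKA 15 were negative and 4 positive (median -0.19), and edgeR called none, with 6 at an unadjusted p under 0.05 and 1 called by DESeq2.

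In PL the same enzymes lay on the other side of PP. Of the 19, 18 had positive estimates in PL against PP over both treatments (median 0.37), and 6 were called higher where 1.05% of all genes were called, among them Sqle, squalene epoxidase (147% higher, SE 0.34 on the log2 scale, adjusted p = 0.0292), Idi1 (log2 fold change 0.84, adjusted p = 0.0119) and Msmo1 (0.67, adjusted p = 0.00793), named after their values were seen. In LL against PL all 19 were negative (median -0.72) and 12 were called lower where 0.34% of all genes were called. With the clock component in the model the counts were 2 higher for PL against PP, where 0.139% of all genes were called, and 13 lower for LL against PL, where 0.444% were. With GKA 18 of 19 were positive against PP (median 0.61), and edgeR called none, with 13 at an unadjusted p under 0.05 and 5 called by DESeq2. Without GKA 13 of 19 were positive (median 0.15), and edgeR called none, with 0 at an unadjusted p under 0.05 and 0 called by DESeq2. For GKA itself the median was 0.56 in PL with 19 of 19 positive, 0.18 in LL with 17 positive and -0.0037 in PP with 8 positive. In these 3 comparisons edgeR and DESeq2 called none, with 9, 5 and 0 at an unadjusted p under 0.05. These comparisons share PP or PL mice, so that their values are given side by side only. For Insig1 the estimates over both treatments were -0.93 for LL against PP, -0.09 for PL against PP and -0.84 for LL against PL. Those for GKA were 0.25 in PL, -0.25 in LL and -0.11 in PP, none of them called.

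**Figure D5:**
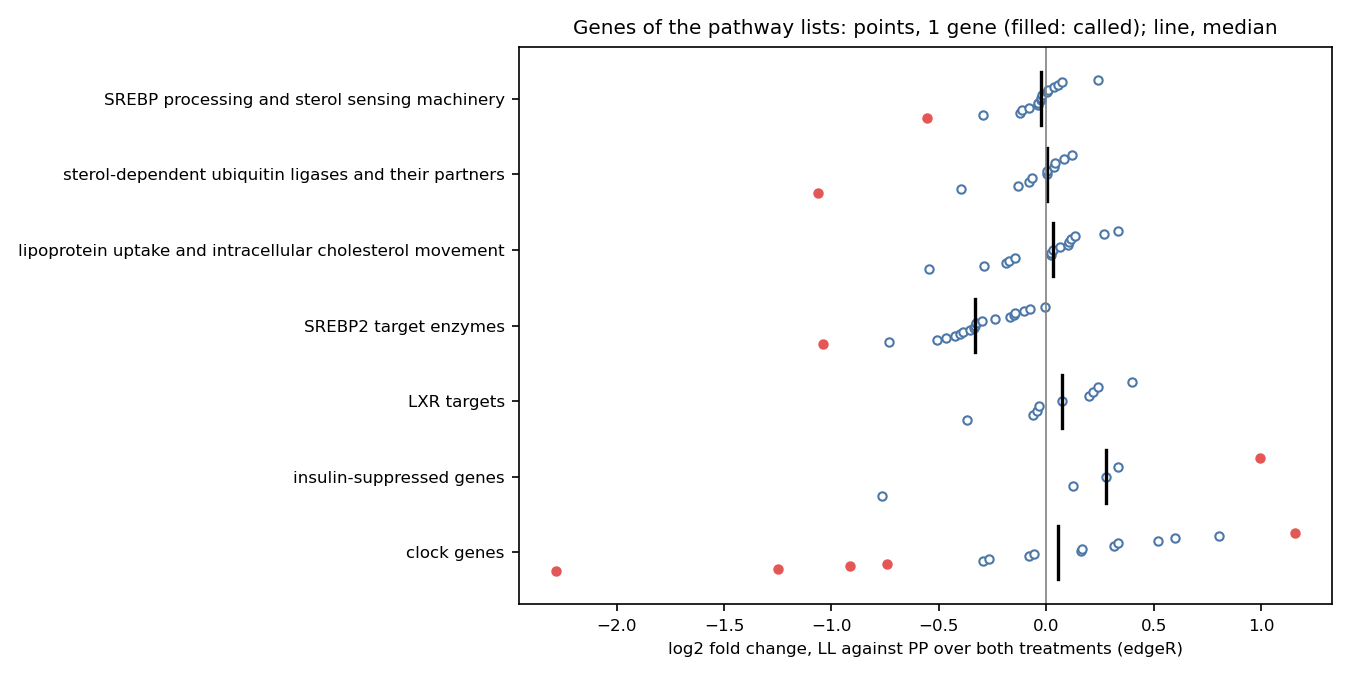
Log2 fold change of LL against PP over both treatments for each gene (point) of 7 lists, filled where called; the vertical line is the median of a list. All 19 SREBP2 target enzymes lie below 0, with a median of -0.33, whereas the sterol sensing, ubiquitin ligase and uptake lists are centred near 0 with 1, 1 and 0 called genes.

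The machinery that moves and cuts SREBP showed little difference. Of 16 genes of SREBP processing and sterol sensing, 1 was called lower in LL against PP over both treatments, where 1.7% of all genes were called, and none higher, with a median of -0.02. The called gene, Tmem41b, an endoplasmic reticulum scramblase, fell by 0.56 on the log2 scale (SE 0.10, adjusted p = 0.000470), from 18.5 ± 3.596 CPM in PP to 11.1 ± 2.62 in LL without GKA. None of the 16 was called in PL against PP (median -0.07, 3 with an unadjusted p under 0.05, 0 called by DESeq2) or in LL against PL (median 0.03, 1 with an unadjusted p under 0.05, 0 called by DESeq2).

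Of 11 ubiquitin ligases that act with INSIG proteins and their partners, Syvn1, which encodes the ligase HRD1 of endoplasmic reticulum quality control, was the 1 called in each genotype against PP, where 1.7% (LL) and 1.05% (PL) of all genes were called. It fell by 1.06 in LL (SE 0.20, adjusted p = 0.000600) and by 1.00 in PL (SE 0.21, adjusted p = 0.00461) on the log2 scale over both treatments. Its means without GKA were 101 ± 34.1 CPM in PP, 53.4 ± 14.3 in PL and 50.4 ± 30.9 in LL. Its partner Ube2g2 had a log2 fold change of -0.39 in LL (adjusted p = 0.00135), under the threshold on fold. With the clock component in the model 1 of the 11 was called lower in LL, where 0.706% of all genes were called.

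Of 15 genes of lipoprotein uptake and cholesterol movement, none was called in LL against PP over both treatments (median 0.03, 4 with an unadjusted p under 0.05, 0 called by DESeq2). Npc1, which exports cholesterol from lysosomes, had 0.33 (SE 0.07, adjusted p = 0.00346) there and was called in PL against PP at 0.44 (SE 0.08, adjusted p = 0.000506). Of 9 LXR targets none was called by edgeR in either comparison (medians 0.07 and -0.01), with 2 and 1 at an unadjusted p under 0.05 and 1 and 0 called by DESeq2. Of 5 genes that insulin suppresses, G6pc1, glucose-6-phosphatase, rose in LL by 0.99 (SE 0.20, adjusted p = 0.00135), and Igfbp1 fell in PL by 1.16 (SE 0.28, adjusted p = 0.0152). In these comparisons 1.7% and 1.05% of all genes were called. The list did not move together. In LL the mean of Igfbp1 was lower than in PP, 20.7 against 33.1 CPM without GKA and 15.8 against 29.3 with GKA. Irs2 had higher means without GKA in PL and LL, 7.93 and 7.59 CPM, than in PP, 6.18. Of the 16 clock genes, 1 was called higher and 4 lower in LL, and 5 higher and 4 lower in PL, where 1.7% and 1.05% of all genes were called in either direction. In LL Npas2 fell by 2.28, Cry1 by 0.91 and Bmal1 by 1.25 (adjusted p = 0.00135, 0.00263 and 0.00718).

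The genes whose level was most like each of the 6 were sought over 55 mice after subtraction of the group means, among 11477 genes of the same libraries. For Insig1 they were Sc5d (Pearson r = 0.84), Acsl3 (0.78) and Fasn (0.75), and for Insig2 Slc16a1 (0.78), Psmd11 (0.75) and Caprin1 (0.75). For Srebf2 they were Tnpo2 (0.74), Rnf125 (0.73) and Numa1 (0.72), and for Scap Atp11a (0.70), Bmp1 (0.66) and Col18a1 (0.66). For Stard4 they were Raph1 (0.69), Acsl4 (0.65) and Mctp2 (0.65), and for Mylip Ptprb (0.74), Ltbp4 (0.73) and Adgrf5 (0.73). Among the 6 genes themselves the closest pair was Srebf2 and Scap (r = 0.43), followed by Insig1 with Insig2 and with Srebf2 (0.37 each). The lowest r was that of Insig1 with Mylip, -0.20. All come from the same 55 libraries, so that differences in RNA quality or composition between mice enter each of them.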

How the data were processed

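Total liver RNA with an integrity number above 6 was sequenced from 56 mice. Without trimming, the authors quantified the reads with Salmon 1.4.0 against the transcripts of GENCODE M26 for GRCm39. Per transcript, the deposited values are an estimated count that is not normalised, a TPM that Salmon scaled by effective length, and both lengths. There is 1 file per mouse, and the labels name no batch.

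Transcripts were assigned to genes by identifier in GENCODE M39 (GRCm39), from which names, positions and starts come. Of 139225 transcripts 137570 (98.8%) matched, and 73.5% of all had the same length in both releases. Estimated counts were summed per gene, or per start group, and rounded. The main test across all genes was edgeR's quasi-likelihood F test (edgeR 4.0.16 in R 4.3.3), after filterByExpr and TMM normalisation. Adjusted p-values are Benjamini-Hochberg values over all genes or start groups tested, except where permutation tests are named, which were adjusted over 9 comparisons. Genes with an adjusted p under 0.05 and a ratio of at least 1.3 or at most 0.7 were called. CPM has TMM scaling, and log2 CPM a prior count of 2. The 95% intervals assume normal errors. Pairwise fits used the 2 groups compared, and fits over both treatments had genotype and GKA as terms over 55 mice. Shares and ratios were compared by 2-sided permutation tests in SciPy 1.17.1, by full enumeration (exact) unless both groups held 10 mice, when 100000 resamples were drawn. The counts of 236 pairs of mice of the same group were compared to look for repeated libraries. The lowest chi-square was 11.3 per degree of freedom, and none was found.

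Named genes were the 6 members, Gckr, up to 3 genes per list by p in LL against PP over both treatments, and 3 genes most like each member, passing over genes not reported here. Sqle, Idi1 and Msmo1 fall outside that rule and were named after their values were seen. The members and lists were chosen with earlier results of these data known. Labels do not say how the mice of a group relate to each other. The test was checked on simulated counts for LL against PP with GKA and over both treatments. Of changes of 1.5-fold it recovered 59.4% and 69.8%, and of 2-fold 88.3% and 92.3%. Between 1.10% and 3.89% of the calls were false. Comparisons without GKA were not simulated. The alternatives were DESeq2 1.42.0, RLE size factors, no filter on low counts, PP mouse 7 kept, all 6 groups in 1 fit, an offset for transcript length, the clock component as a covariate, each mouse left out, start windows of 100 and 2000 bases in place of 500, and shares of TPM. Gene sums of TPM were not used for levels, since Insig2-209, with a very short effective length, took up to 87.0% of Insig2 TPM in a mouse. The length offset and the upstream shares of TPM also rest on these TPM values. Promoter windows were read from the GRCm39 genome.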

Additional observations from a re-analysis of the deposited data

Results flagged for a closer look

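In 11 of 54 sets of a measure and a group, 1 mouse lay farther from its neighbour, for the range of the group, than Dixon's 95% critical value. Chance flags about 1 in 20 groups, and the upstream level and the upstream share of Insig2 are not independent of each other. For Insig1, LL mouse 51 with GKA had 175 CPM, above the next mouse at 122 CPM. Without this mouse or any other, Insig1 was still called in LL against PP with GKA.

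For Mylip the highest mice of 3 groups stood apart: PP mouse 6 with 7.41 CPM, LL mouse 41 with 8.25 CPM and PP mouse 18 with GKA with 7.38 CPM. For the upstream start group of Insig2, PL mouse 21 had 36.2 CPM, PP mouse 15 with GKA 81.5 CPM and PL mouse 29 with GKA 38.3 CPM. The upstream share of Insig2 reads stood apart in the same 3 mice, at 11.4%, 20.0% and 17.2%, and in LL mouse 48 with GKA, at 18.2%. No member had an interaction of GKA with the LL genotype at an adjusted p under 0.05 in edgeR.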

How the results depend on the processing

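No paired analysis was possible because every mouse has a number of its own and no number is shared between groups. Of the log2 fold changes of the 6 genes recomputed under the alternatives, 853 kept their direction and their side of the threshold, 7 passed it only under an alternative, 3 were lost and 23 changed direction. These include 94 fits that each left out 1 mouse and so reused nearly the same data. The length offset lost Insig1 in LL against PP with GKA and Insig2 in PL against PP over both treatments. The clock component lost the same Insig2 difference. None of the reversed values had an adjusted p under 0.05, and the cause was not tested.

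By DESeq2, 2 of the 6 genes were called in LL against PP without GKA, 1 in PL against PP without GKA and 1 in LL against PL with GKA, where edgeR called 0. Of all genes DESeq2 called 109, 71 and 39 in these comparisons, and edgeR 9, 16 and 0. A fit of all 6 groups together also called 1 in LL against PL with GKA. With the offset for transcript length 0 were called in LL against PP with GKA and 0 in PL against PP over both treatments, against 1 each. When each mouse was left out, the count for LL against PP without GKA was 0 to 1, with 1 only without LL mouse 42. Of all genes those fits called 0 to 85, with a median of 0. PL against PP and LL against PL were not refitted without single mice. The Mylip estimate for LL against PP ranged from -0.26 to 0.021 without GKA and from -0.21 to 0.0030 with GKA, and that of Stard4 with GKA from -0.10 to 0.0035.

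With the clock component as covariate, the reversed values for LL against PP were 0.032 (Srebf2), 0.00070 (Scap) and 0.091 (Stard4) without GKA, 0.099 (Insig2) and 0.069 (Scap) with GKA, and 0.052 (Scap) over both treatments. For PL against PP over both treatments they were 0.0100 (Insig1) and 0.038 (Mylip), and for GKA over all genotypes -0.031 (Insig2) and -0.019 (Scap). With the offset for length they were 0.26 (Stard4) without GKA, 0.072 (Insig2), 0.085 (Scap) and 0.011 (Stard4) with GKA and 0.13 (Stard4) over both treatments for LL against PP. They were -0.14 (Insig2) for LL against PL over both treatments, 0.032 (Insig1) for GKA in PP, and 0.077 (Insig1), -0.26 (Insig2) and -0.10 (Scap) for GKA over all genotypes. In shares of TPM, the difference in the upstream share of Insig2 was 0.300 percentage points for PL against PP without GKA, and with GKA 0.0494 for LL against PP, 9.85 for PL against PP and -9.80 for LL against PL.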
